A study of Mus musculus with 18 samples.

Results

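The genes described here are 9 co-stimulatory and inhibitory checkpoint genes of the mouse, Pdcd1, Cd274, Pdcd1lg2, Btla, Tnfrsf14, Cd80, Cd86, Lag3 and Cd200. They were found by the gene name printed for each spot of an Agilent whole-genome mouse array, which gave 18 of its 43426 probes, and every probe of these names was kept. RNA came from thymi of C57BL/6 mice that had been injected with an antibody against DLL4 or with an isotype control antibody and were sampled after 2 weeks. For total thymocytes there were 3 anti-DLL4 and 4 isotype samples, and DN cells (CD4-CD8-) gave 3 and 3. DN1 cells (CD4-CD8- CD44+CD25-) gave 3 and 2. The age of the mice, and whether animals were pooled, were not given in the sources used here. The series text counts 3 isotype thymocyte samples where the labels name 4, and all 4 were used. It also speaks of 4 animals per antibody without tying a sample to an animal, so p-values measure the spread between these samples, which may share animals or be technical.

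Checkpoint molecules set how strongly a lymphocyte answers when its antigen receptor is engaged. PD-1 (Pdcd1), LAG-3 (Lag3) and BTLA (Btla) are inhibitory receptors of lymphocytes, and PD-L1 (Cd274), PD-L2 (Pdcd1lg2) and HVEM (Tnfrsf14) are ligands of the first and the last of them. CD80 and CD86 are carried by dendritic cells and activated B cells and engage the activating receptor CD28 or the inhibitory receptor CTLA-4, and CD200 restrains myeloid cells that carry its receptor. In the thymus, DLL4 on epithelial cells engages Notch1 on the earliest progenitors and commits them to the T lineage, PD-1 is carried by thymocytes from about the time of the first receptor selection, and CD80 and CD86 are found on medullary epithelium, dendritic cells and thymic B cells.

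A level below is the log2 of the processed spot signal minus the 75th percentile of all non-control spots on the same array, so that 0 is the brightness of that percentile. A difference is anti-DLL4 minus isotype, or the first population named minus the second, and is given relative to the median difference of all tested probes, ± its standard error. A probe is said to be called where limma's p, adjusted by the Benjamini-Hochberg method across every probe tested in that comparison, fell under 0.05. That p is of the difference before the median was subtracted. The 18 arrays lay on 6 slides, and the 75th percentile of signal ran from 260.2 to 4295.4. All 3 isotype DN arrays (260.2 to 675.5) were dimmer than all 3 anti-DLL4 DN arrays (741.3 to 1076.8). The gate genes followed the sort in part. Cd44 averaged 2.73 in isotype DN1 cells and 0.35 in isotype DN cells, and Il2ra, which encodes CD25, averaged -1.45 and 1.24. Cd8b1 averaged 6.97 in isotype DN cells against 8.80 in isotype thymocytes, and Cd8a 3.09 against 6.86, so RNA of the CD8 chains was present in cells sorted as lacking CD8. Cd4 had a low mean in every group, total thymocytes included. It was higher in isotype DN cells (-2.24) than in isotype thymocytes (-2.93), with overlapping ranges, so it says little about the sort. Cd8a had a higher mean in isotype DN1 (4.10) than in isotype DN cells, with overlapping ranges. With anti-DLL4 the DN1 gate was less plain, at 2.05 in DN1 and 1.90 in DN cells for Cd44, and at 0.27 and 0.81 for Il2ra. For weighing statements that groups do not overlap, 4.69% of all tested probes were higher and 8.99% lower on every anti-DLL4 than on every isotype array in thymocytes. For DN cells these shares were 9.7% higher and 21.8% lower, and for DN1 cells 8.63% higher and 9.64% lower. Without overlap, 7.12% were lower in isotype DN cells than in isotype thymocytes, and 12.8% higher in isotype DN1 than in isotype DN cells. Of the 18 probes, 17 were well above background on at least 2 arrays and entered the model. The one left out, a Cd274 probe, was well above background on no array.

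In outline, Pdcd1 fell in DN1 cells with anti-DLL4, Btla and 2 of the 3 Cd86 probes rose in DN cells, and 1 of those Cd86 probes rose in total thymocytes. The Pdcd1 call and the thymocyte Cd86 call were narrow and were lost under many of the settings tried. Both Btla probes and those 2 Cd86 probes also stood higher in isotype DN1 cells than in isotype DN cells. No probe of the other 6 genes was called in any comparison. Among these, the brightest probes of Cd274, Pdcd1lg2 and Cd200 were higher on every anti-DLL4 DN array than on every isotype DN array, as were 9.7% of all probes tested there.

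**Figure D1:**
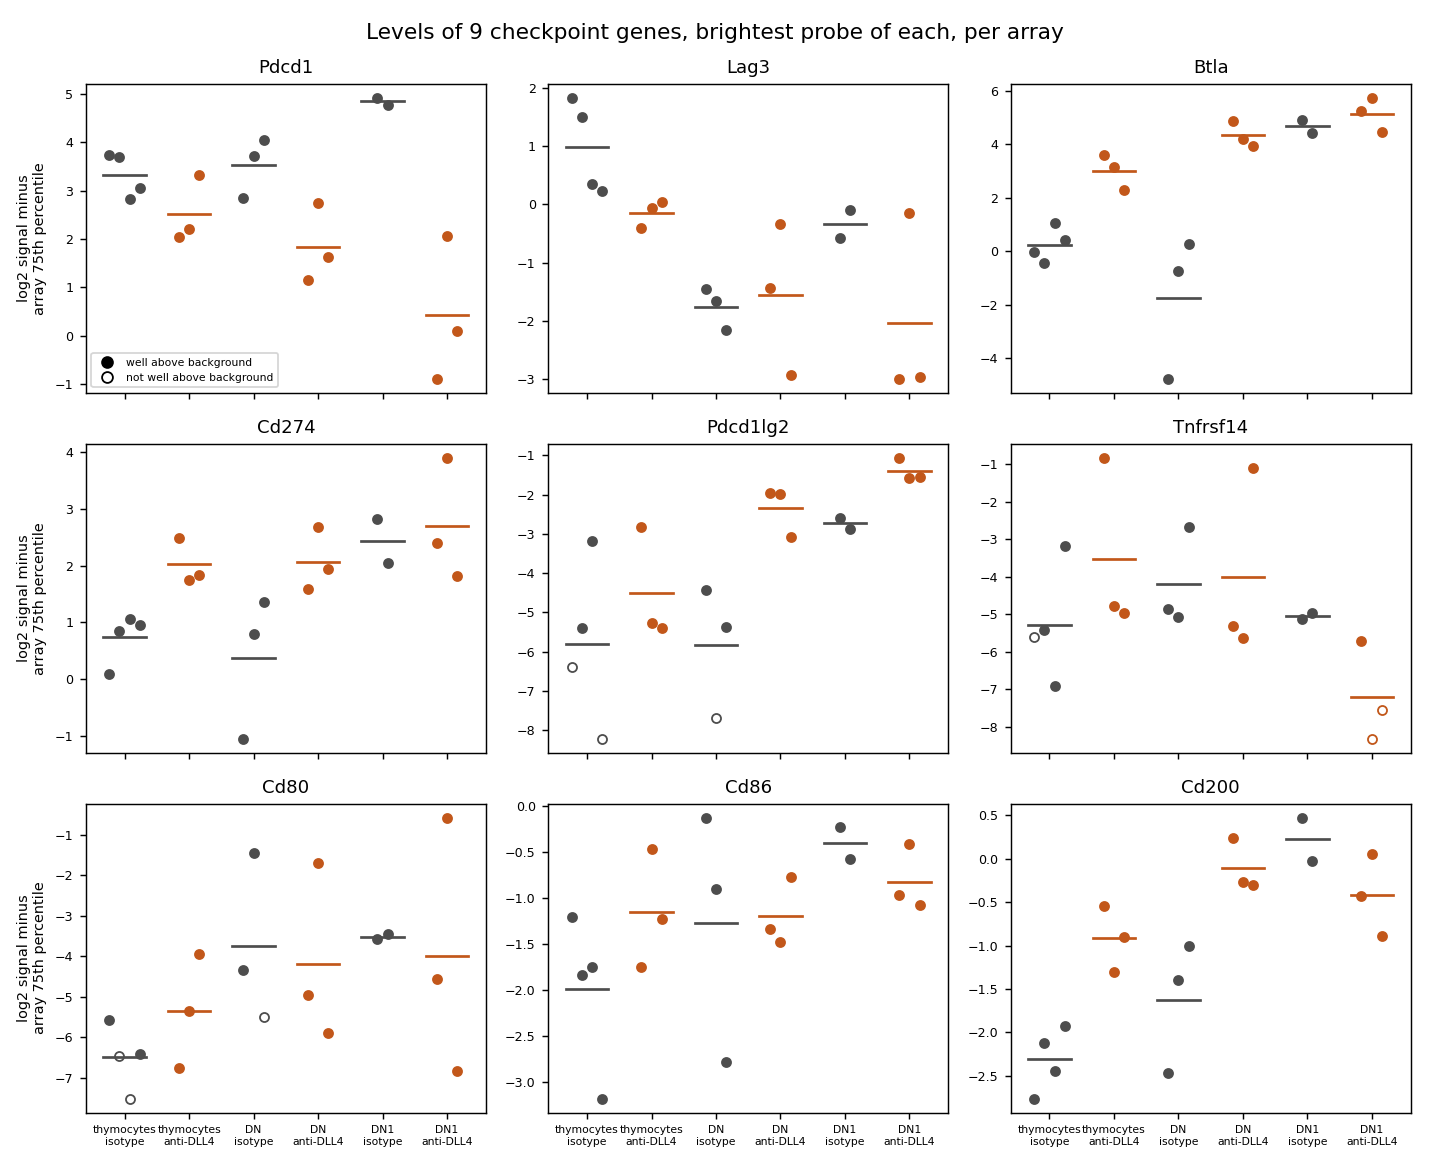
Level of each gene's brightest probe on each of the 18 arrays (y axis, log2 signal minus the array's 75th percentile; each panel has its own scale), by group on the x axis. Grey points are isotype arrays, orange points anti-DLL4 arrays, open points were not well above background, and bars are group means; the 3 anti-DLL4 DN1 points of Pdcd1, from -0.89 to 2.05, lie below both isotype DN1 points, and all 3 anti-DLL4 DN points of Btla lie above all 3 isotype DN points.

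Pdcd1 encodes PD-1, the receptor that recruits phosphatases to the antigen receptor when it binds PD-L1 or PD-L2. It had 1 probe (A_51_P285736) at chr1:95868893-95868952 of build mm8, the build the array files use. Its first 30 of 60 bases are shown because the only call of a falling gene rests on this probe.
Pdcd1 A_51_P285736, first 30 bases: aaggaaagggggatataaccttgacgcaaa
The level of Pdcd1 was 4.92 and 4.77 in the isotype DN1 samples and -0.89, 2.05 and 0.1 in the anti-DLL4 DN1 samples. All 3 treated samples lay below both controls, and the treated samples were spread over a far wider range than the controls. Relative to all probes, Pdcd1 fell by 4.39 ± 0.78 (95% interval -6.05 to -2.73), a fold of 21.0, with a limma adjusted p of 0.043.

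This was the only one of 17 member probes called in DN1 cells, where 0.109% of 36661 tested probes were called. The call was narrow. It was lost without anti-DLL4 DN1 replicate 1 (difference -3.55, limma adjusted p 0.124) or replicate 3 (-4.30, 0.121) and without isotype DN1 replicate 1 (-4.36, 0.258) or replicate 2 (-4.39, 0.355). Leaving out an isotype DN1 array, here and for Btla and Cd86, leaves 1 control sample that is assumed to vary like the other groups. Leaving out anti-DLL4 thymocyte replicate 1, isotype thymocyte replicate 1, 2, 3 or 4, anti-DLL4 DN replicate 1 or 3, or isotype DN replicate 2 left the difference at -4.39, with limma adjusted p of 0.0529 to 0.0753. Within the slides that held both treatments, the difference was -2.52 on slide 3 and -4.53 on slide 5.

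In DN cells Pdcd1 stood at 2.85, 3.71 and 4.05 with isotype and at 1.15, 2.75 and 1.62 with anti-DLL4. The treated DN samples were again all below the controls, but the difference of -1.05 ± 0.70 was not called (limma adjusted p 0.134). In thymocytes the levels were 3.73, 3.69, 2.82 and 3.05 with isotype and 2.03, 2.20 and 3.33 with anti-DLL4. These overlapped, and the difference was -0.38 ± 0.65 (limma adjusted p 0.587). The group means ran, from high to low, isotype DN1 4.84, isotype DN 3.54, isotype thymocytes 3.32, anti-DLL4 thymocytes 2.52, anti-DLL4 DN 1.84 and anti-DLL4 DN1 0.42. Among neighbours in that order, only isotype DN1 and isotype DN cells had ranges that did not overlap. The effect in DN1 cells minus that in thymocytes was -4.0 ± 1.02, and minus that in DN cells -3.33 ± 1.05, and neither was called (limma adjusted p 0.31 and 0.358), so a difference in the response of Pdcd1 between populations was not shown.

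A list of 10 T-cell genes (Cd3d, Cd3e, Cd3g, Cd247, Lck, Cd4, Cd8a, Cd8b1, Trat1 and Themis) was read beside Pdcd1. Summed as linear levels, in units of each array's 75th percentile, these genes reached 218 to 312 on the isotype DN1 arrays and 29.3 to 76.1 on the anti-DLL4 DN1 arrays, with all 10 well above background on every array. In DN cells the sums were 275 to 557 with isotype and 76.3 to 174 with anti-DLL4, and in thymocytes 587 to 1840 and 393 to 941. None of the 10 was called in DN1 cells by limma, and 8 of them had an unadjusted p under 0.05, against 5.22% of all probes. Their relative differences there ran from -3.62 (Cd8a) to -0.26 (Cd4, whose mean was low in every group). In DN cells 1, Themis, was called lower, where 3.72% of all probes were called. Their part in the result was not tested. In these bulk samples, fewer cells of a type and less RNA per cell cannot be told apart.

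Lag3 encodes an inhibitory receptor that binds MHC class II and is carried by activated T cells and NK cells. Its 2 probes, A_51_P264825 (chr6:124870171-124870467) and A_51_P264826 (chr6:124870191-124870487), overlap. They are shown whole, with the 40 bases they share in capitals, because their close agreement is not independent evidence. Each is 60 bases long and its mm8 coordinates span 297 bases.
Lag3 A_51_P264825: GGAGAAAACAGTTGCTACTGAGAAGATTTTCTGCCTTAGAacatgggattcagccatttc
Lag3 A_51_P264826: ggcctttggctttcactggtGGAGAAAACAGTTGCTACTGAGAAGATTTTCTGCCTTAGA
Over the 18 arrays the levels of these probes had a Pearson correlation of 1.00, a description of arrays that share both sequence and sample. The level at A_51_P264825 was 1.84, 1.51, 0.35 and 0.24 in isotype thymocytes and -0.41, -0.06 and 0.04 in anti-DLL4 thymocytes. All 4 controls lay above all 3 treated samples, yet the difference was -0.71 ± 0.74 relative to all probes (limma adjusted p 0.507). In DN1 cells the isotype levels were -0.58 and -0.10 and the anti-DLL4 levels -3.0, -0.15 and -2.98. Replicates 1 and 3 were low and replicate 2 lay among the controls, and the difference of -1.67 ± 0.88 was not called (limma adjusted p 1). In DN cells the levels were -1.46, -1.67 and -2.16 with isotype and -1.44, -0.33 and -2.93 with anti-DLL4, ranges that overlapped.

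The clearest spread of Lag3 was between populations. Isotype DN cells lay below isotype thymocytes on every array, by -3.10 ± 0.74 at A_51_P264825 (limma adjusted p 0.0809) and -2.89 ± 0.72 at A_51_P264826 (0.0938), without a call. With each array scaled by quantile normalization, or centred on the median of modelled probes, both Lag3 probes were called lower there, with limma adjusted p of 0.0267 to 0.0454, and A_51_P264825 also without anti-DLL4 DN1 replicate 2 (0.0444). Mean levels ran from 0.99 in isotype thymocytes through -0.14 in anti-DLL4 thymocytes, -0.34 in isotype DN1, -1.57 in anti-DLL4 DN and -1.76 in isotype DN to -2.05 in anti-DLL4 DN1 cells. Only the first pair of neighbours had ranges that did not overlap.

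Btla encodes an inhibitory receptor of B cells, T cells and dendritic cells that binds HVEM. Its 2 probes lie on chromosome 16 of mm8, A_51_P402354 at chr16:45172074-45172133 and A_51_P402359 at chr16:45171337-45171396, and share no stretch of coordinates, so they read the transcript at separate places. Their first 30 bases are shown because both were called.
Btla A_51_P402354, first 30 bases: tgctcaagatttcacctcaatgaatgatca
Btla A_51_P402359, first 30 bases: cgtagactggtgagaatggaagggagttga
At A_51_P402354 the DN levels were -4.76, -0.72 and 0.26 with isotype and 4.89, 4.2 and 3.95 with anti-DLL4. At A_51_P402359 they were -2.71, -4.89 and -3.91 with isotype and 1.65, 1.99 and 1.42 with anti-DLL4. At both probes every treated DN sample stood well above every control, with isotype replicate 1 the lowest control at the first probe and replicate 2 at the second. All isotype DN controls were well above background at both probes. The lowest of them, -4.76 and -4.89, lay near the dimmest well-above-background probes of their arrays (-5.3 and -5.38), so the folds are approximate. Relative to all probes, Btla rose in DN cells by 6.73 ± 0.95 (106-fold, limma adjusted p 0.00231) at A_51_P402354 and by 6.16 ± 0.74 (71.8-fold, limma adjusted p 0.000717) at A_51_P402359.

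These were 2 of the 4 member probes called among 17 tested in DN cells, where 3.72% of 34253 probes were called. On slide 3, which held 1 DN sample of each treatment, the differences were 9.89 and 5.63. Without the 2 dimmest isotype DN arrays (replicates 1 and 2), which leaves a single control assumed to vary like the other groups, they were 4.42 and 5.92, and both stayed called (limma adjusted p 0.0348 and 0.0248). The call at A_51_P402354 was lost when only the DN arrays were fitted (6.73, limma adjusted p 0.0703).

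In thymocytes the levels of Btla at A_51_P402354 were -0.04, -0.45, 1.07 and 0.41 with isotype and 3.60, 3.16 and 2.31 with anti-DLL4. Every treated sample was above every control, and the difference of 3.20 ± 0.89 was not called (limma adjusted p 0.147). It passed when isotype DN replicate 1, an array of another population that enters the shared estimate of spread, was left out (limma adjusted p 0.0197). At A_51_P402359 the thymocyte levels were -1.77, -2.59, -2.03 and -1.70 against 2.13, 0.09 and -0.82, a difference of 2.91 ± 0.70 (limma adjusted p 0.0977). The effect minus that of thymocytes was 3.68 ± 1.30 in DN cells, with a limma adjusted p of 0.525, so the DN effect was not shown to be the larger.

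In DN1 cells Btla was high in both treatments. The levels at A_51_P402354 were 4.91 and 4.44 with isotype and 5.27, 5.75 and 4.45 with anti-DLL4, which overlapped, and the difference was 0.52 ± 1.06 (95% interval -1.73 to 2.77). The effect in DN1 cells minus that in DN cells was -6.21 ± 1.42 at A_51_P402354 and -6.17 ± 1.12 at A_51_P402359, with limma adjusted p of 0.153 and 0.065. At A_51_P402359 this contrast passed with quantile normalization (limma adjusted p 0.0276), with arrays centred on the median of modelled probes (0.0340), and without anti-DLL4 thymocyte replicate 3 (0.0426), anti-DLL4 DN1 replicate 2 (0.0485) or isotype DN replicate 3 (0.0373). The last of these also took A_51_P402354 past the threshold (-7.34, limma adjusted p 0.0262).

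Isotype DN1 cells stood above isotype DN cells at both Btla probes, by 7.07 ± 1.06 (135-fold, limma adjusted p 0.00751) and 6.85 ± 0.83 (116-fold, limma adjusted p 0.0028). The same dim isotype DN controls enter these folds, which are approximate as well. Every isotype DN1 array was above every isotype DN array. In that comparison 1.1% of 36063 probes were called. The call at A_51_P402359 was lost with normexp background correction (4.58, limma adjusted p 0.0611) and that at A_51_P402354 with the arrays of the DN and DN1 samples alone (7.07, 0.0507). Both calls were lost without isotype DN1 replicate 1 (6.81 and 6.65, limma adjusted p 0.151 and 0.104), that at A_51_P402354 also without replicate 2 (7.18, 0.0751), and the loss of the 2 dim isotype DN arrays brought it to 4.69 (0.0722). From high to low, the mean levels at A_51_P402354 were 5.16 in anti-DLL4 DN1, 4.67 in isotype DN1, 4.35 in anti-DLL4 DN, 3.02 in anti-DLL4 thymocytes, 0.25 in isotype thymocytes and -1.74 in isotype DN cells. The ranges did not overlap between anti-DLL4 DN cells and anti-DLL4 thymocytes, nor between the thymocytes of both treatments.

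Most markers of B cells, a cell type that carries BTLA, moved with Btla. The summed level of 7 B-cell genes (Cd79a, Cd79b, Ms4a1, Pax5, Blnk, Fcrla and Cd22), a linear sum led by its brightest genes, was 37.5 to 43.5 on isotype DN arrays and 594 to 834 on anti-DLL4 DN arrays. It was 22.3 to 47.1 in isotype and 96.1 to 363 in anti-DLL4 thymocytes, and 226 to 385 in isotype and 332 to 610 in anti-DLL4 DN1 cells. Of the 7 genes, 4 were called higher with anti-DLL4 in thymocytes, 6 in DN cells and 0 in DN1 cells (0 also at limma's unadjusted p under 0.05), and 4 were called higher in isotype DN1 than in isotype DN cells. Of all tested probes, 1.16%, 3.72%, 0.109% and 1.1% were called either way in these comparisons. Between 5 and 7 of the genes were well above background on the isotype thymocyte and isotype DN arrays. Cd79a had the same mean, -3.10, in isotype DN and isotype DN1 cells. Sums of the conventional dendritic cell and NK-cell lists read below were also higher with anti-DLL4 in thymocytes and DN cells. They were higher in isotype DN1 than in isotype DN cells as well. The part of any of these cells in the result was not tested.

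**Figure D2:**
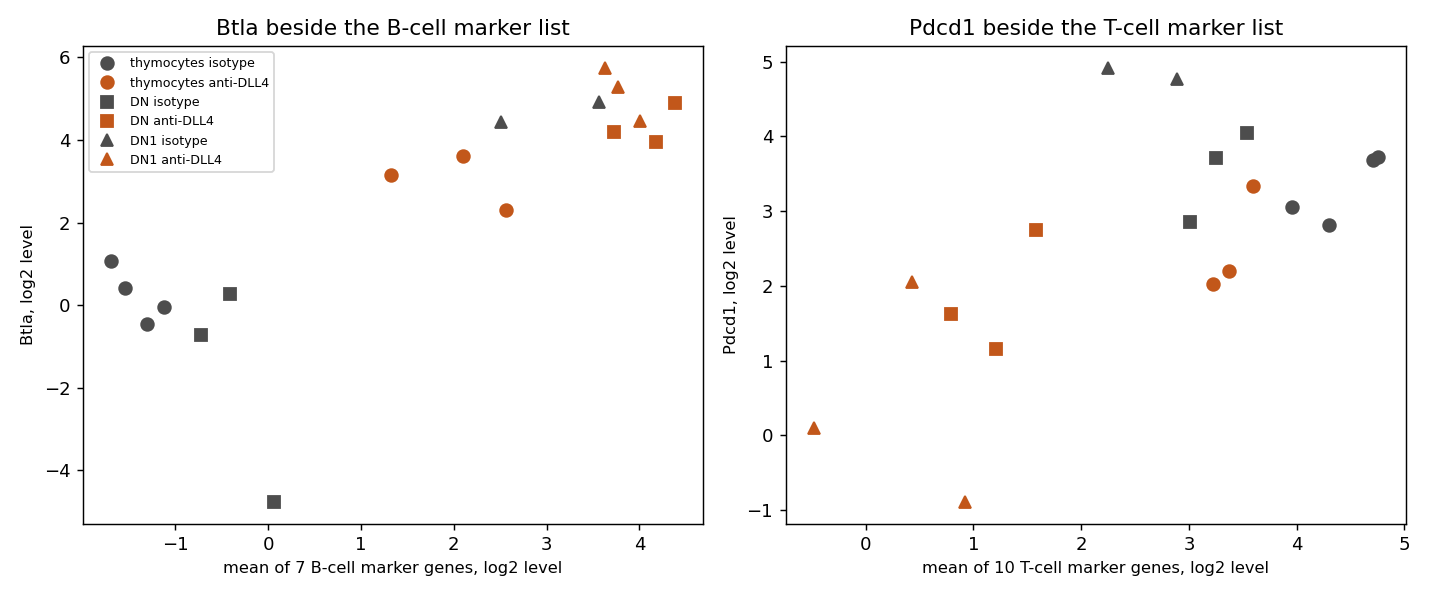
Left, level of Btla (A_51_P402354, y axis) against the mean log2 level of 7 B-cell genes (x axis) on the 18 arrays; right, level of Pdcd1 against the mean log2 level of 10 T-cell genes. Circles are thymocytes, squares DN and triangles DN1 cells, in grey for isotype and orange for anti-DLL4; the anti-DLL4 DN1 arrays have B-cell means of 3.63 to 4.01 and T-cell means of -0.48 to 0.92.

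Cd274 encodes PD-L1, a ligand of PD-1 carried by many blood and stromal cells. Of its 3 probes, A_51_P248666 (chr19:29453870-29453929) and A_51_P248665 (chr19:29453920-29453979) overlap on chromosome 19 by 10 bases, shown in capitals in the last 30 bases of one and the first 30 of the other.
Cd274 A_51_P248666, last 30 bases: tatgaagtttaagaaaatatCGGGTTGGGC
Cd274 A_51_P248665, first 30 bases: CGGGTTGGGCaacacattctatttattcat
The third probe, A_51_P388092 at chr19:29444919-29444978, is annotated to a cDNA clone. Its coordinates are given in descending order while those of the other two ascend, and it was well above background on no array. The first 30 bases of this silent probe are given for comparison.
Cd274 A_51_P388092, first 30 bases: tcttgtctatctttaattgaattcaccatc
At A_51_P248665 the levels of Cd274 in DN cells were -1.05, 0.79 and 1.35 with isotype and 1.58, 2.67 and 1.93 with anti-DLL4. In thymocytes they were 0.08, 0.85, 1.06 and 0.95 with isotype and 2.49, 1.75 and 1.83 with anti-DLL4. In both populations all treated samples stood above all controls. The differences, 2.34 ± 0.67 in DN cells (limma adjusted p 0.125) and 1.71 ± 0.63 in thymocytes (0.364), were not called, and A_51_P248666 gave 2.51 ± 0.70 and 1.87 ± 0.65. In DN cells both probes passed once isotype DN replicate 3 was left out (2.90 and 3.04, limma adjusted p 0.0386 and 0.0380). Over all probes, calls in DN cells ranged from 509 to 7985 when 1 array was left out, against 1273 with all arrays.

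DN1 cells had the highest Cd274 in either treatment, at 2.82 and 2.05 with isotype and 2.40, 3.90 and 1.81 with anti-DLL4. These overlapped, with a difference of 0.30 ± 0.75 (95% interval -1.29 to 1.90). The order of mean levels was anti-DLL4 DN1 2.70, isotype DN1 2.44, anti-DLL4 DN 2.06, anti-DLL4 thymocytes 2.02, isotype thymocytes 0.73 and isotype DN 0.36, and only the thymocytes of both treatments were neighbours without overlap.

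Pdcd1lg2 encodes PD-L2, the second PD-1 ligand, which is found mainly on dendritic cells, macrophages and some B cells. Its probe A_51_P383448 lies at chr19:29536533-29536592, 82.6 kb from the nearest Cd274 probe. It was dim, and well above background on 15 of the 18 arrays.
Pdcd1lg2 A_51_P383448, first 30 bases: gagttggaaggatctgatgggaaaccctca
The DN levels were -4.43, -7.69 and -5.37 with isotype, the second of them not well above background, and -1.97, -1.98 and -3.08 with anti-DLL4. Each treated sample was above each control, and the difference of 4.13 ± 1.08 was not called (limma adjusted p 0.0788). It passed with quantile normalization (4.81, limma adjusted p 0.0285), with arrays centred on the median of modelled probes (0.0428) and without isotype DN replicate 3 (4.43, 0.0433). In DN1 cells the levels were -2.60 and -2.87 with isotype and -1.06, -1.57 and -1.55 with anti-DLL4. Here too the treated samples were all higher, by 1.37 ± 1.21 (limma adjusted p 1). In thymocytes the levels were -6.39, -5.40, -3.18 and -8.21 with isotype, the first and last not well above background, and -2.83, -5.28 and -5.40 with anti-DLL4. The thymocyte ranges overlapped. Mean levels ran from -1.39 in anti-DLL4 DN1 and -2.34 in anti-DLL4 DN, which did not overlap, through -2.73 in isotype DN1 and -4.51 in anti-DLL4 thymocytes to -5.80 in isotype thymocytes and -5.83 in isotype DN cells.

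Tnfrsf14 encodes HVEM, the partner of BTLA, which also binds LIGHT and CD160. Its 2 probes, A_51_P230589 (chr4:153766018-153766077) and A_51_P230583 (chr4:153765965-153766024), were well above background on 15 and 9 arrays, and their coordinates overlap by a few bases. At A_51_P230589 the levels were between -6.92 and -3.18 in isotype thymocytes and -4.98 and -0.82 in anti-DLL4 thymocytes. They were -4.85, -5.08 and -2.67 in isotype DN and -5.32, -5.64 and -1.09 in anti-DLL4 DN cells. Single arrays stood high in each of these groups, anti-DLL4 thymocyte replicate 1 and replicate 3 of both DN groups, and the groups overlapped. In DN1 cells the isotype levels were -5.12 and -4.96 and the anti-DLL4 levels -5.71, -8.32 and -7.56, the last pair of them not well above background. The differences were 2.18 ± 1.25 in thymocytes, 0.83 ± 1.33 in DN and -2.13 ± 1.49 in DN1 cells, and none was called (limma adjusted p 0.54, 0.938 and 1). From high to low the group means were anti-DLL4 thymocytes -3.52, anti-DLL4 DN -4.02, isotype DN -4.20, isotype DN1 -5.04, isotype thymocytes -5.28 and anti-DLL4 DN1 -7.20, and all neighbours overlapped.

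Cd200 encodes a membrane glycoprotein of B cells, activated T cells and dendritic cells. Its 3 probes differed in brightness. A_52_P254095 (chr16:45301649-45301708) was well above background on all 18 arrays, A_51_P293110 (chr16:45314029-45314088) on 4, and A_66_P136284 (chr16:45338434-45338493) on 13. The coordinates of the third are given in ascending order, against the descending order of the first pair, and it carries a non-RefSeq identifier. The weak probes are shown whole beside the start of the bright one, because the result for Cd200 rests on the bright one alone.
Cd200 A_52_P254095, first 30 bases: gacaaaactagtgaagttgttttctgtatc
Cd200 A_51_P293110: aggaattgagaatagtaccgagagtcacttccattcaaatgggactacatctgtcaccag
Cd200 A_66_P136284: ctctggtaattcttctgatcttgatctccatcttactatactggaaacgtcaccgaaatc
At A_52_P254095 the DN levels were -2.47, -1.40 and -1.0 with isotype and 0.24, -0.27 and -0.30 with anti-DLL4. In thymocytes they were -2.76, -2.12, -2.44 and -1.92 with isotype and -0.54, -1.30 and -0.90 with anti-DLL4. Treated samples stood above all controls in both populations. The differences of 2.16 ± 0.50 in DN cells (limma adjusted p 0.0898) and 1.81 ± 0.46 in thymocytes (0.169) were not called. In DN cells the difference passed with arrays centred on the median of modelled probes (limma adjusted p 0.0489) and without isotype DN replicate 3 (2.53, 0.0263).

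In DN1 cells Cd200 stood at 0.47 and -0.03 with isotype and at -0.43, 0.05 and -0.89 with anti-DLL4. These overlapped, with a difference of -0.61 ± 0.56. The means ran from 0.22 in isotype DN1 through -0.11 in anti-DLL4 DN, -0.42 in anti-DLL4 DN1, -0.92 in anti-DLL4 thymocytes and -1.62 in isotype DN to -2.31 in isotype thymocytes, with overlap between all neighbours. Isotype DN1 cells exceeded isotype DN cells by 2.50 ± 0.56 (limma adjusted p 0.138), which passed without isotype DN replicate 3 (2.89, 0.0477). The weak probes did not follow. A_66_P136284 was not well above background on any anti-DLL4 DN array, nor on isotype DN replicate 3. Its mean level was -5.21 in isotype and -6.94 in anti-DLL4 DN cells, which was not called (limma adjusted p 0.176). Its level was lower on every anti-DLL4 DN array (-7.57 to -6.62) than on every isotype DN array (-6.27 to -4.24), as were 21.8% of all tested probes. Before scaling, the processed signals overlapped, at 13.7, 9.71 and 8.74 with isotype and 9.02, 5.66 and 7.48 with anti-DLL4. In thymocytes A_66_P136284 gave 0.33 ± 0.77, and its correlation with the bright probe over 18 arrays was -0.40.

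Cd80 and Cd86 encode the B7 ligands of CD28 and CTLA-4. The single Cd80 probe (A_52_P244005, chr16:38393393-38393452) was dim and well above background on 15 arrays, and the nearest Cd86 probe lies 1855.7 kb away on the same chromosome.
Cd80 A_52_P244005, first 30 bases: agaccggggcacatacagctgtgtcgttca
Cd80 levels were -4.33, -1.45 and -5.49 in isotype DN cells, the last not well above background, and -4.96, -1.70 and -5.89 in anti-DLL4 DN cells. They were -3.58 and -3.46 in isotype DN1 and -4.55, -0.58 and -6.83 in anti-DLL4 DN1 cells. Replicate 2 was high in 3 of these groups, and the treatments overlapped in both populations. In thymocytes the levels ran from -7.51 to -5.56 with isotype and from -6.75 to -3.94 with anti-DLL4. The treatment differences were 1.56 ± 1.33, 0.22 ± 1.43 and -0.44 ± 1.60 in thymocytes, DN and DN1 cells. Means fell in the order isotype DN1 -3.52, isotype DN -3.76, anti-DLL4 DN1 -3.99, anti-DLL4 DN -4.18, anti-DLL4 thymocytes -5.35 and isotype thymocytes -6.48, all overlapping with their neighbours.

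Cd86 had 3 probes that gave different answers, all annotated to the same RefSeq transcript. Each is listed with its position on chromosome 16, where the coordinates descend along the transcript, A_51_P174728 at chr16:36537641-36537700, A_51_P174723 at chr16:36534534-36534593 and A_52_P145861 at chr16:36523659-36523718. Their sequences are shown because the call depends on which is read.
Cd86 A_51_P174728: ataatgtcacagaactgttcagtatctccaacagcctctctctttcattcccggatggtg
Cd86 A_51_P174723: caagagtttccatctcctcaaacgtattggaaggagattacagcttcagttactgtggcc
Cd86 A_52_P145861, first 30 bases: ccaggagacatcactagaatccaaccaaca
The brightest, A_51_P174728, gave DN levels of -0.13, -0.90 and -2.78 with isotype and -1.34, -1.48 and -0.77 with anti-DLL4. At A_51_P174723 the levels were -4.77, -4.64 and -6.54 with isotype, the last not well above background, and -0.46, -1.32 and 0.01 with anti-DLL4. At A_52_P145861 they were -7.39, -4.56 and -5.43 with isotype, only the second well above background, and -0.86, -1.22 and -1.42 with anti-DLL4. The groups overlapped at the brightest probe, and at the other probes every treated DN sample was above every control. Cd86 rose in DN cells by 5.37 ± 0.80 at A_51_P174723 (41.4-fold, limma adjusted p 0.00392) and by 5.27 ± 0.83 at A_52_P145861 (limma adjusted p 0.00605, with no fold given since 2 of its 3 controls were not well above background), while A_51_P174728 gave 0.72 ± 0.67 (limma adjusted p 0.948). The fold at A_51_P174723 is approximate, since its last control was not well above background. Its other controls, -4.77 and -4.64, lay near the dimmest well-above-background probes of their arrays (-5.3 and -5.38).

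Both Cd86 calls in DN cells were lost with normexp background correction, where the differences were 2.48 and 1.87 (limma adjusted p 0.177 and 0.435), and that at A_52_P145861 also without both dim isotype DN arrays (4.59, 0.121). Within slide 3 the DN differences were 4.38 and 7.10. In thymocytes the levels at A_52_P145861 were -6.02, -5.29, -4.79 and -3.78 with isotype, the first not well above background, and -0.39, -0.01 and -2.73 with anti-DLL4. All 3 treated samples were above all 4 controls, replicate 3 the least. Cd86 rose there by 4.34 ± 0.78 (20.3-fold, limma adjusted p 0.023), the only call among 16 member probes tested in thymocytes, where 1.16% of 34920 probes were called. That fold is approximate, since the first control was not well above background.

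The thymocyte call was lost without anti-DLL4 replicate 1 (3.84, limma adjusted p 0.0914) or 2 (3.75, 0.123), or isotype replicate 1 (3.88, 0.0603), 2 (4.21, 0.0568) or 3 (4.48, 0.0523). It was also lost with quantile normalization (3.99, limma adjusted p 0.0636), the replicate block (4.82, 0.124), thymocyte arrays alone (4.34, 0.114) and arrays centred on the median of modelled probes (4.34, 0.0546). Within slides 1, 2 and 4 the difference was 6.79, 6.03 and 1.72. At A_51_P174723 the thymocyte levels were -1.53, -1.15, -2.40 and -4.39 against -0.84, 0.56 and -1.11, a difference of 2.32 ± 0.74 (limma adjusted p 0.246), and A_51_P174728 gave 1.27 ± 0.62 (0.556). In DN1 cells all 3 probes were at like levels in both treatments, with differences of -0.39 ± 0.75, -0.30 ± 0.89 and -0.12 ± 0.93.

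Isotype DN1 cells exceeded isotype DN cells by 6.35 ± 0.89 at A_51_P174723 (81.7-fold, limma adjusted p 0.00601) and 6.40 ± 0.93 at A_52_P145861 (limma adjusted p 0.00684, against the same controls), and by 1.53 ± 0.75 at A_51_P174728 (0.493). With both Btla probes, the Cd86 calls made 4 of 17 member probes called in that comparison. Only 2 of the 3 isotype DN arrays were well above background at A_51_P174723, and these 2 only narrowly, so the fold there is approximate. Both Cd86 calls were lost with normexp background (3.03 and 2.51, limma adjusted p 0.472 for each) and without isotype DN1 replicate 1 (6.24 and 5.77, 0.126 and 0.165), that at A_51_P174723 without replicate 2 (6.31, 0.0658), and that at A_52_P145861 without both dim isotype DN arrays (5.64, 0.0962). From high to low the means at A_51_P174723 were isotype DN1 0.38, anti-DLL4 DN1 0.04, anti-DLL4 thymocytes -0.46, anti-DLL4 DN -0.59, isotype thymocytes -2.36 and isotype DN -5.32, and only the last pair did not overlap.

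**Figure D3:**
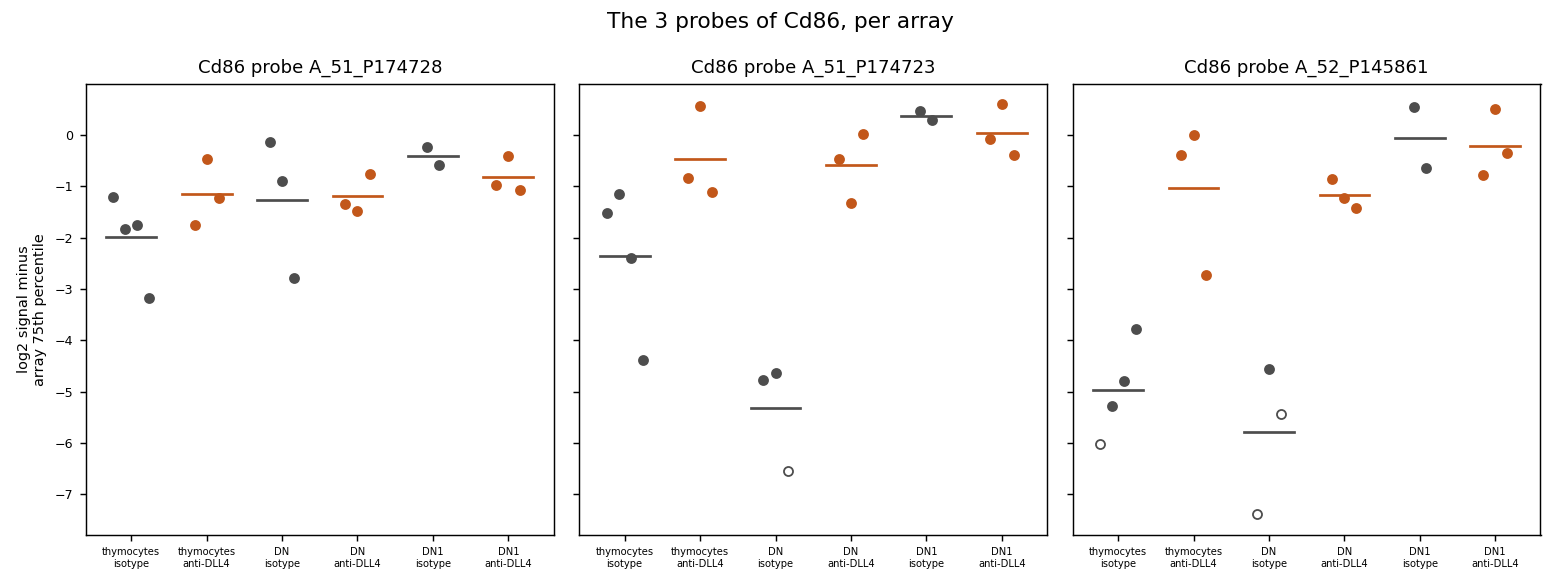
Level of Cd86 at each of its 3 probes (panels) on the 18 arrays, by group on the x axis; the y axis is log2 signal minus the array's 75th percentile. Grey points are isotype, orange anti-DLL4, open points not well above background, bars group means; the isotype DN mean is -1.27 at the first probe, -5.32 at the second and -5.79 at the third, while anti-DLL4 DN means are -1.19, -0.59 and -1.17.

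Genes of antigen-presenting cells stood beside the Cd86 result. The summed level of 8 conventional dendritic cell genes (Itgax, Flt3, Zbtb46, Clec9a, Xcr1, Batf3, Ccr7 and Itgae) was, as a linear sum led by its brightest genes, 5.30 to 5.95 on isotype DN and 29.0 to 64.2 on anti-DLL4 DN arrays, 21.9 to 32.8 and 54.1 to 81.2 in thymocytes, and 32.0 to 44.3 and 17.0 to 66.0 in DN1 cells. Of these 8 genes, 3 (Ccr7, Itgax and Itgae) were called higher with anti-DLL4 in DN cells, 1 in thymocytes and 0 in DN1 cells (0 also at limma's unadjusted p under 0.05), and between 6 and 8 were well above background on each array. Of all tested probes, 3.72% were called in DN cells, 1.16% in thymocytes and 0.109% in DN1 cells, shares that also stand beside the lists that follow. The relative differences of Zbtb46 (-1.30 ± 0.71), Xcr1 (-1.24 ± 0.80) and Flt3 (0.18 ± 0.59) in DN cells were below or near 0 and not called. A list of 8 monocyte and macrophage genes, whose brightest is Lyz2, summed to 24.1 to 54.5 with isotype and 63.3 to 113 with anti-DLL4 in DN cells, while its mean log2 level overlapped (-1.87 to -0.89 against -1.40 to 0.19). Of these, Adgre1 and Csf1r were called higher, and Mertk (-3.89 ± 1.67) and Cd14 (0.31 ± 1.09) were not called. Of 8 NK-cell genes, 4 were called higher in DN cells, with sums of 8.69 to 15.5 with isotype and 75.7 to 87.9 with anti-DLL4, and 3 in thymocytes, with sums of 14.2 to 42.8 and 155 to 226. Of 7 plasmacytoid dendritic cell genes tested in DN cells 2 were called higher and 1 lower, and of 8 thymic epithelial genes limma called 0, with 1 at an unadjusted p under 0.05, against 28.8% of all probes. The part of these cells, and of the B cells above, in the Cd86 result was not tested.

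Set side by side, the brightest probes of the 9 genes had a median difference with anti-DLL4 of 1.71 in thymocytes, 0.84 in DN cells and -0.44 in DN1 cells, where the median of all tested probes is 0 by construction. Of the 9, 7 lay above that median in thymocytes, 8 in DN and 3 in DN1 cells. At an unadjusted p under 0.05, limma gave 6 of 16 member probes in thymocytes, 9 of 17 in DN and 1 of 17 in DN1 cells, against 14.6%, 28.8% and 5.22% of all probes. Probes of the same gene are not independent, and among the 9 brightest probes the counts were 2, 5 and 1. None of the 17 member probes was called in the differences of effect between populations, where 0.0107% (DN minus thymocytes), 0.0893% (DN1 minus thymocytes) and 0.137% (DN1 minus DN) of probes were called. Unadjusted p-values under 0.05 from limma were found for 3, 4 and 6 of them, against 8.46%, 6.82% and 11.6% of all probes. Among the 9 brightest probes the counts were 1, 2 and 3. The largest in size among the contrasts of DN1 with DN were those of Btla above and of Cd86, -5.67 ± 1.19 at A_51_P174723 (limma adjusted p 0.121). That Cd86 contrast passed with quantile normalization (-6.16, limma adjusted p 0.0210) and with arrays centred on the median of modelled probes (0.0447).

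**Figure D4:**
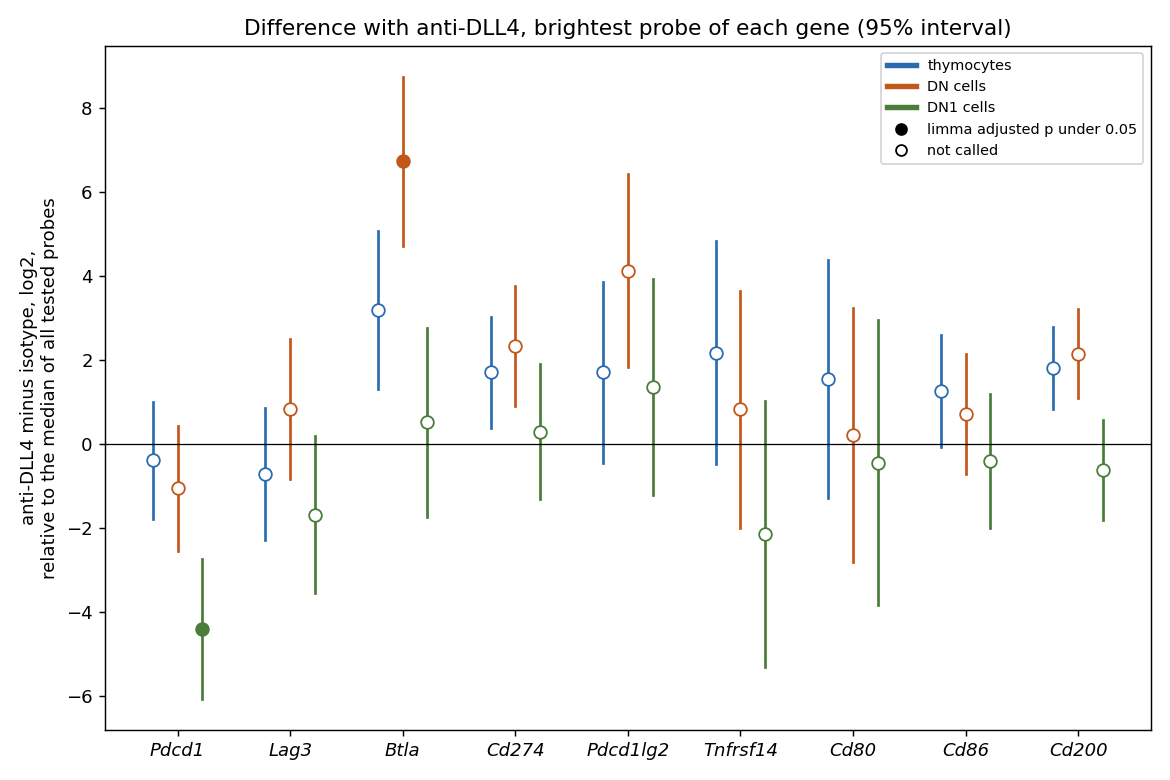
Difference between anti-DLL4 and isotype for the brightest probe of each gene (y axis, log2, relative to the median of all tested probes) with its 95% interval, in thymocytes (blue), DN cells (orange) and DN1 cells (green). Filled points passed a limma adjusted p of 0.05 and open points did not; Btla in DN cells lies at 6.73 and Pdcd1 in DN1 cells at -4.39.

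Between populations of the same treatment, no member probe was called in isotype DN cells against isotype thymocytes (1.13% of 35878 probes called), in anti-DLL4 DN cells against anti-DLL4 thymocytes (0.28% of 33543) or in anti-DLL4 DN1 against anti-DLL4 DN cells (0% of 35175). Unadjusted p-values under 0.05 from limma were found for 5, 0 and 2 member probes there, against 19.8%, 7.41% and 4.34% of all probes, and for 8 in isotype DN1 against isotype DN cells, against 19% of all. Among the 9 brightest probes the counts were 2, 0 and 1, and 4 in the last comparison. In isotype DN cells against isotype thymocytes the nearest to a call, ahead of both Lag3 probes, was Cd86 at A_51_P174723 (-3.31 ± 0.74, limma adjusted p 0.0678). It passed with quantile normalization (limma adjusted p 0.0055), with arrays centred on the median of modelled probes (0.0160) and without isotype thymocyte replicate 4 (-3.93, 0.0220). Btla was called lower there at A_51_P402359 with quantile normalization (-2.71, limma adjusted p 0.0484) and at A_51_P402354 without isotype DN replicate 3 (-3.42, 0.0425), against -2.17 ± 0.70 and -2.34 ± 0.89 over all arrays. With anti-DLL4, Btla in DN cells and DN1 cells differed by 0.81 ± 0.95, and Cd86 at A_51_P174723 by 0.64 ± 0.80.

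Receptors, ligands and signalling partners of the same pathways were taken from a list of 35 genes, 32 of which had a probe, each read at its brightest probe. In thymocytes 2 of 28 tested were called higher with anti-DLL4 and 0 lower, where 1.16% of all probes were called. They were Cd226, an activating receptor that competes with TIGIT (3.00 ± 0.49, limma adjusted p 0.0185), and Lair1, an inhibitory collagen receptor (2.77 ± 0.52, limma adjusted p 0.0371). In DN cells 3 of 30 were higher and 1 lower, against 3.72% of all probes called. Cd40, the receptor through which helper T cells act on B cells and dendritic cells, rose by 4.09 ± 0.52 (limma adjusted p 0.00188), Lta, which encodes another ligand of HVEM, by 4.16 ± 0.85 (0.0331), and Icos, a CD28 relative, by 3.61 ± 0.59 (0.0105). Nectin2, a ligand of CD226 and TIGIT, fell by 3.48 (± 1.04, limma adjusted p 0.0383). That p is of the larger fall before the median of all tested probes, -0.65, was subtracted. The Nectin2 means were -5.91 with anti-DLL4 (SD 0.68) and -1.79 with isotype (SD 2.64). In DN1 cells limma called 0 of 30, and 7 had an unadjusted p under 0.05, against 5.22% of all probes.

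Most other partner genes were not called with treatment, among them several that bind a member protein. In DN1 cells Cd28 gave -2.32 ± 1.42, Ctla4 -0.46 ± 0.83, Cd160 -2.46 ± 0.64 and Tnfsf14, which encodes LIGHT, -2.11 ± 0.85. In DN cells the CD200 receptor gene Cd200r1 gave 1.32 ± 0.97, Cd28 -0.86 ± 1.27 and Ctla4 -0.32 ± 0.74. Isotype DN1 cells exceeded isotype DN cells at 3 of 29 partner genes (1.1% of all probes), Cd40 (4.86 ± 0.58, limma adjusted p 0.00379), Icos (4.58 ± 0.66, 0.00816) and Cd226 (3.50 ± 0.59, 0.0304). Isotype DN cells lay below isotype thymocytes at 3 of 28 (1.13% of all probes), Cd5 (-4.10 ± 0.57), Pvr (-3.93 ± 0.63) and Icos (-3.01 ± 0.55), with limma adjusted p of 0.00623, 0.0132 and 0.0322. With anti-DLL4, DN cells lay below thymocytes at 2 of 29 (0.28% of all probes), Cd5 (-3.34 ± 0.61, limma adjusted p 0.0304) and Tnfrsf4 (-4.0 ± 0.67, 0.0172).

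Among the members, the levels of Cd274, Btla and Cd200 ran together over the 18 arrays. Pearson correlations were 0.90 for Cd274 with Btla, 0.84 for Btla with Cd200 and 0.82 for Cd274 with Cd200, where the 18 points share arrays, groups and scaling. Pdcd1 ran against Pdcd1lg2 (-0.52) and with Lag3 (0.57). Against 22289 probes of other genes, Btla was most like Traf5 (0.97) and Lats2 (0.95), Cd200 most like Ms4a4c and Casp1 (0.93 each), and Cd274 most like Adcy7 and Plxnc1 (0.91 each). Lag3 was most like Ptpn22 and Pvr (0.94 each), Pdcd1lg2 most like Coq10b (0.90), Cd86 at its brightest probe most like Dyrk4 (0.87) and Pdcd1 most like Smox (0.86). Cd80 and Tnfrsf14, the dim pair, had the weakest neighbours, Doc2g (0.80) and Ccdc91 (0.73).

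Btla and Cd200 are near neighbours on chromosome 16, with 129.5 kb between their nearest probes in mm8. A promoter, here the 250 bases before the annotated start from the RefSeq annotation of GRCm38.p6, was on hand for 7 of the 9 genes. Each was searched on both strands for TGGGAA, the core of the site of RBPJ (the DNA-binding partner of Notch) and for TTCNNNGAA, a STAT site. Among 32851 promoters of the same length, 21.6% and 7.0% held a match. The first was found in Tnfrsf14, Cd80 and Cd200, and the second in none of the 7. The promoters of the neighbours Btla (chr16:45224087-45224336, forward strand) and Cd200 (chr16:45409054-45409303, reverse strand) and of Pdcd1 (chr1:94052554-94052803, reverse strand) are printed from 5′ to 3′ on the gene's strand, with matches in capitals.
Btla promoter: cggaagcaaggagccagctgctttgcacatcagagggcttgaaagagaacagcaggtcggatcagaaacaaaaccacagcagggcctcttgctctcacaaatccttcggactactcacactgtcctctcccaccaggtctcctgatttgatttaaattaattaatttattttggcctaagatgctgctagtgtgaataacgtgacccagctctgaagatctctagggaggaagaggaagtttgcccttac
Cd200 promoter: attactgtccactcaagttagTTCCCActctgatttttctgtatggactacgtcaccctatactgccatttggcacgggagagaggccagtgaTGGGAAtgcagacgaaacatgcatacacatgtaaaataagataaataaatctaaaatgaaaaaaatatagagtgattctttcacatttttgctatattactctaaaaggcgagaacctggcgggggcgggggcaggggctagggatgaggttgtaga
Pdcd1 promoter: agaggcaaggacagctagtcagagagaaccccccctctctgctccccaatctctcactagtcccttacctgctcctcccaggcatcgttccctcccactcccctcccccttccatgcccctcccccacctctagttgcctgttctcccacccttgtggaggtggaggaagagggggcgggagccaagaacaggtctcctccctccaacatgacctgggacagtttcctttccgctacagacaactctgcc
The Cd200 promoter held 2 matches to the RBPJ core, 1 on each strand, and those of Btla and Pdcd1 held neither motif. A match is a description of letters, and no match says only that these letters are not in this window.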

How the data were processed

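RNA of 18 samples was read on 1-colour arrays after 2 rounds of amplification, per the labels' protocols. The authors deposited scanner intensity values (Agilent Feature Extraction 9.5.3.1 per the file headers, 9.5 per the submitters' processing notes), background-subtracted within each array and not scaled between arrays. They also deposited a table of 43225 probes holding a linear ratio to a probe centre whose definition is unknown; it was used as an alternative. The deposited flags for background, outlier and saturated spots, values of other kind, were read from the same files.

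Processed signals were put on the log2 scale, each array's 75th percentile (control spots excluded) was subtracted, outlier spots were dropped, and repeat spots were averaged. One linear model of 6 group means over 18 arrays was fitted to 38962 probes with limma 3.58.1 in R 4.3.3. To enter, a probe had to be well above background on 2 or more arrays, and to be tested, on 2 or more among those compared. All p-values are two-sided. Calls come from differences before the median of all tested probes was subtracted; that median was -0.42 in thymocytes, -0.65 in DN and -0.03 in DN1 cells. A gene was led by its brightest probe, and all probes of the 9 genes and all called partner genes were named. The members and the lists were chosen with earlier results of these data known; 1 gene of the B-cell list is not reported here. Background correction, scaling, filter, slide, replicate block, probe choice, arrays in the fit, the deposited table and single arrays were varied. The model code was tested on simulated data. The number of arrays limits the precision.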

Additional observations from a re-analysis of the deposited data

How the results depend on the processing

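Of 10 called probe differences, none changed sign under any setting tried. Of 158 uncalled differences, 27 values under an alternative passed the threshold and 120 changed sign without a call, among 4498 values. Scaling moved the median of all tested probes, with quantile normalization to -0.20, -0.02 and -0.06 in thymocytes, DN and DN1 cells, with normexp background to 0.16, -1.28 and -0.20, and with scaling to probes well above background on all arrays to -0.15, -0.90 and 0.01. The settings that centred arrays on the median of modelled probes, or left out both dim isotype DN arrays, were chosen after seeing the data.

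Counts of member probes called moved as follows. In thymocytes (1 called) the count was 0 with quantile normalization, with the replicate block, with 1 probe per gene, with the arrays of thymocytes alone and with median centring. In DN cells (4) it was 2 with normexp background and 1 with 1 probe per gene, 3 with the replicate block, with DN arrays alone and without both dim arrays, 5 with quantile normalization and 6 with median centring. In DN1 cells (1) it was 0 with normexp background, with the replicate block, with the arrays of DN1 cells alone and with median centring. For DN1 minus DN effects (0) it was 2 with quantile normalization and 2 with median centring. For isotype DN against isotype thymocytes (0) it was 4 and 3 with these settings. For isotype DN1 against isotype DN (4) it was 1 with normexp background, 1 with 1 probe per gene and 2 without both dim isotype DN arrays. With 1 probe per gene fewer probes are tested; otherwise the cause was not tested.

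Leaving out single arrays gave 0 to 2 member calls in thymocytes, 4 to 8 in DN cells (8 without isotype DN replicate 3), 0 to 1 in DN1 cells, 0 to 2 for DN1 minus DN effects, 0 to 1 for isotype DN against isotype thymocytes and 0 to 5 for isotype DN1 against isotype DN; the other 4 comparisons stayed at 0. Over all probes the calls ranged from 165 to 521 in thymocytes, 509 to 7985 in DN and 0 to 64 in DN1 cells when 1 array was left out, and from 68 to 546, 184 to 1818 and 0 to 59 under the other settings. With 1 array left out they ranged from 0 to 707 for DN1 minus DN effects, 87 to 3795 for isotype DN against isotype thymocytes and 1 to 1697 for isotype DN1 against isotype DN. With all arrays, 1273 probes were called in DN cells. Isotype DN replicate 3 had the smallest share of spots well above background, 59.9%. Member probes that passed without it are to be read beside these wide ranges over all probes.

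Whether replicate numbers pair the samples could not be settled. Deviations of same-numbered treated and control arrays from their group means had correlations of -0.22 to 0.03 in thymocytes, -0.15 to -0.01 in DN and -0.02 to 0.27 in DN1 cells. Deviations within groups of so few arrays are bound to one another, and same-numbered thymocyte arrays also shared a slide. These values therefore cannot exclude pairing. With the replicate block Pdcd1 in DN1 cells gave -4.30 (limma adjusted p 0.437) and Cd86 at A_52_P145861 gave 4.82 in thymocytes (0.124) and 5.27 in DN cells (0.0573). Slide as a random block (consensus correlation -0.0302) changed no member count.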
